A study of Mus musculus with 56 samples.

Results

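The ubiquitin ligases Znrf3 and Rnf43, the secreted ligands Rspo1 and Rspo3 and the receptors Lgr4, Lgr5 and Lgr6 are 7 genes of a single signalling module, and their transcripts were followed through the adrenal gland. They were chosen by name, with earlier results of these data known. Matched by symbol to Ensembl identifiers, they were 7 of the 55487 identifiers counted in females and in males and 7 of the 55414 counted in a surgery series. All 7 passed the filter on low counts in every table. The tissue was the whole adrenal gland of C57BL/6J mice, and each of the 14 groups held 4 independent animals. The conditional knockout (cKO) carried SF1-Cre and homozygous floxed Znrf3 (Znrf3 Fx/Fx), and the control littermates are given only as SF1-Cre negative. Female glands were taken from cKO and control animals at 6, 9 and 12 weeks, and male glands from cKO and control animals at 4, 6 and 9 weeks. In the surgery series every animal was a male cKO at 9 weeks, castrated or sham-operated at week 4. The castrated animals comprised 1 with an eYFP reporter, 2 with an mTmG reporter and 1 with no reporter, and the sham animals 2, 1 and 1. SF1-Cre acts in steroidogenic cells, so capsule, vessel, nerve and immune cells of a cKO gland are not its direct target. The study asked what accompanies the switch of these glands from overgrowth to regression.

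ZNRF3 and RNF43 are membrane ubiquitin ligases that remove Frizzled and LRP5/6, the receptors for Wnt proteins, from the cell surface, and so dampen Wnt signalling. R-spondins are secreted proteins that bind an LGR receptor and a ZNRF3 or RNF43 molecule together, which clears the ligase and leaves more Wnt receptor at the surface. In the adrenal gland the capsule is the known source of R-spondin, RSPO3 above all, and the cortical cells beneath it respond through Wnt/beta-catenin signalling, which maintains the outermost cortical layer, the zona glomerulosa. Znrf3 and Rnf43 are themselves Wnt target genes in other tissues.

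Levels below are CPM, counts scaled to library size with TMM factors, and log2 fold changes are cKO over control or castrated over sham, with an approximate SE. Values of a group are in the order of replicates 1 to 4, and an animal is named by its replicate number. The labels give all 4 sham animals the replicate number 1. They are numbered 1 to 4 here by rising library number (10, 12, 29 and 33). An adjusted p comes from the quasi-likelihood test of edgeR after Benjamini-Hochberg correction over all genes tested in a table, and a gene is said to have risen or fallen when it was under 0.05. Total counts ran from 35.7 to 51.6 M per library in females, 12.4 to 35.5 M in males and 25.1 to 42.4 M in the surgery series. Steroidogenic markers such as Star and Cyp11a1 summed to at least 27944 CPM in every library, and 5 markers of liver and fat to at most 510.1 CPM. The genes called made up 33.4%, 34.6% and 25.1% of those tested in cKO against control females at 6, 9 and 12 weeks, 19.2%, 20.1% and 24.1% in males at 4, 6 and 9 weeks, and 43.6% after castration. In whole glands, fewer cells of a type and less RNA per cell cannot be told apart. Sham animal 1 stood apart in the surgery series: 93.9% of its counts were on identifiers with a gene symbol, against at least 98.97% in all other libraries of the study. Its counts differed from those of the other sham animals by 317 to 368 times the counting variance, where these differed from each other by 27.97 to 44.3 times. Results after castration are given with and without it. In males the labels' library numbers are confounded with genotype: the range above 24 held all 4 controls and no cKO at 6 weeks, 3 controls and no cKO at 4 weeks, and 2 of each at 9 weeks. Each sex was counted in its own table, so a sex difference cannot be told apart from a difference between tables.

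Against that background, 1 member rose in cKO glands at every age in both sexes, and 3 to 5 of the 7 fell. The members and the lists used below were chosen with earlier results known, so their counts beside all genes are a description. In females 4, 4 and 3 members fell at 6, 9 and 12 weeks, where 19.1%, 20% and 16% of all genes tested did. In males 4, 5 and 4 members fell at 4, 6 and 9 weeks, where 12.9%, 11.9% and 13.6% of genes did. The 1 that rose was Znrf3 throughout, with 14.2%, 14.6%, 9.11%, 6.29%, 8.19% and 10.4% of genes called higher in the same order. The 4 cKO libraries lay wholly above or below the 4 controls for 6, 6 and 4 members in females, against 30.4%, 33.4% and 26.2% of all genes, and for 5, 4 and 3 members in males, against 19.1%, 24.7% and 21.7%. The median log2 fold change of the 7 was -1.07, -0.99 and -0.95 in females and -1.31, -0.96 and -0.61 in males, while that of all genes tested ran from -0.02 to 0.01.

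**Figure D1:**
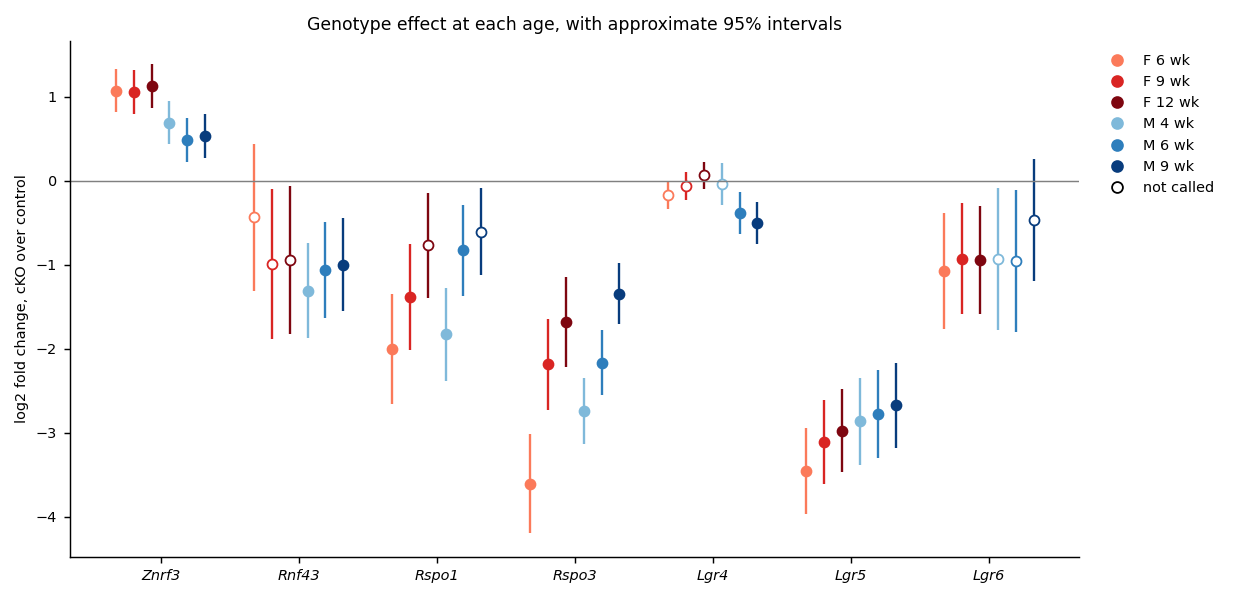
Log2 fold change of each gene in cKO over control glands (y axis) with its approximate 95% interval, for females at 6, 9 and 12 weeks (reds) and males at 4, 6 and 9 weeks (blues). Filled points passed the adjusted p of 0.05: Znrf3 lies above 0 at every age, Lgr5 between -3.46 and -2.67, and Rspo3 climbs towards 0 with age in both sexes.

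Znrf3, the gene carrying the floxed alleles, was higher in cKO glands by gene-level counts. At 6 weeks its level was 101, 82.5, 67.9 and 55.6 CPM in the 4 cKO females, against 40.4, 33.5, 36.5 and 35.9 CPM in the 4 control females. At 9 weeks it was 68.03, 67.1, 85.6 and 76.9 CPM in cKO females and 38.9, 32.1, 38.00 and 34.1 CPM in control females. At 12 weeks it was 73.1, 64.7, 85.4 and 76.6 CPM in cKO females and 31.2, 32.8, 36.6 and 36.7 CPM in control females. Every cKO female thus lay above every control female of its age, and the difference held its size: log2 fold changes were 1.07 ± 0.13 (adjusted p = 1.21e-06), 1.06 ± 0.13 (adjusted p = 1.86e-06) and 1.13 ± 0.13 (adjusted p = 1.07e-06), or 2.10-, 2.08- and 2.18-fold. A count over the whole gene cannot show whether floxed exons were lost, and the deletion was not checked here. Znrf3 spans chr11:5276324-5444847 on the minus strand of GRCm38, with 10 merged exons.

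In males Znrf3 rose at each age. At 4 weeks cKO males had 62.1, 48.2, 47.5 and 50.6 CPM and control males 42.7, 28.7, 30.3 and 27.4 CPM. At 6 weeks cKO males had 42.8, 44.6, 40.1 and 34.3 CPM and control males 32.4, 27.4, 26.4 and 29.3 CPM. At 9 weeks cKO males had 46.2, 40.8, 52.3 and 46.6 CPM and control males 38.5, 27.5, 30.7 and 32.4 CPM. The groups did not overlap at any age, and log2 fold changes were 0.69 ± 0.13 (adjusted p = 0.0005), 0.49 ± 0.13 (adjusted p = 0.0114) and 0.53 ± 0.13 (adjusted p = 0.00538). The genotype effect in females minus that in males was 0.54 ± 0.16 (adjusted p = 0.0406) at 9 weeks, where 8.68% of genes were called, and 0.60 ± 0.20 (adjusted p = 0.0777) at 6 weeks. The 9-week difference lost its call when 1 of 4 libraries was left out: 0.44 (adjusted p = 0.0903) without control male 1, 0.56 (adjusted p = 0.0599) without control male 3, 0.53 (adjusted p = 0.0707) without control male 4 and 0.47 (adjusted p = 0.0881) without cKO male 2. The 6-week one gained a call without cKO female 4, at 0.72 (adjusted p = 0.0148). The male values also depended on library number: with a term for that range the 6-week effect was 0.37 (adjusted p = 0.23), and with only library numbers up to 24 the effect was 0.30 (adjusted p = 0.597) at 4 weeks, on 1 control, and 0.40 (adjusted p = 0.238) at 9 weeks, on 2 animals a group.

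**Figure D2:**
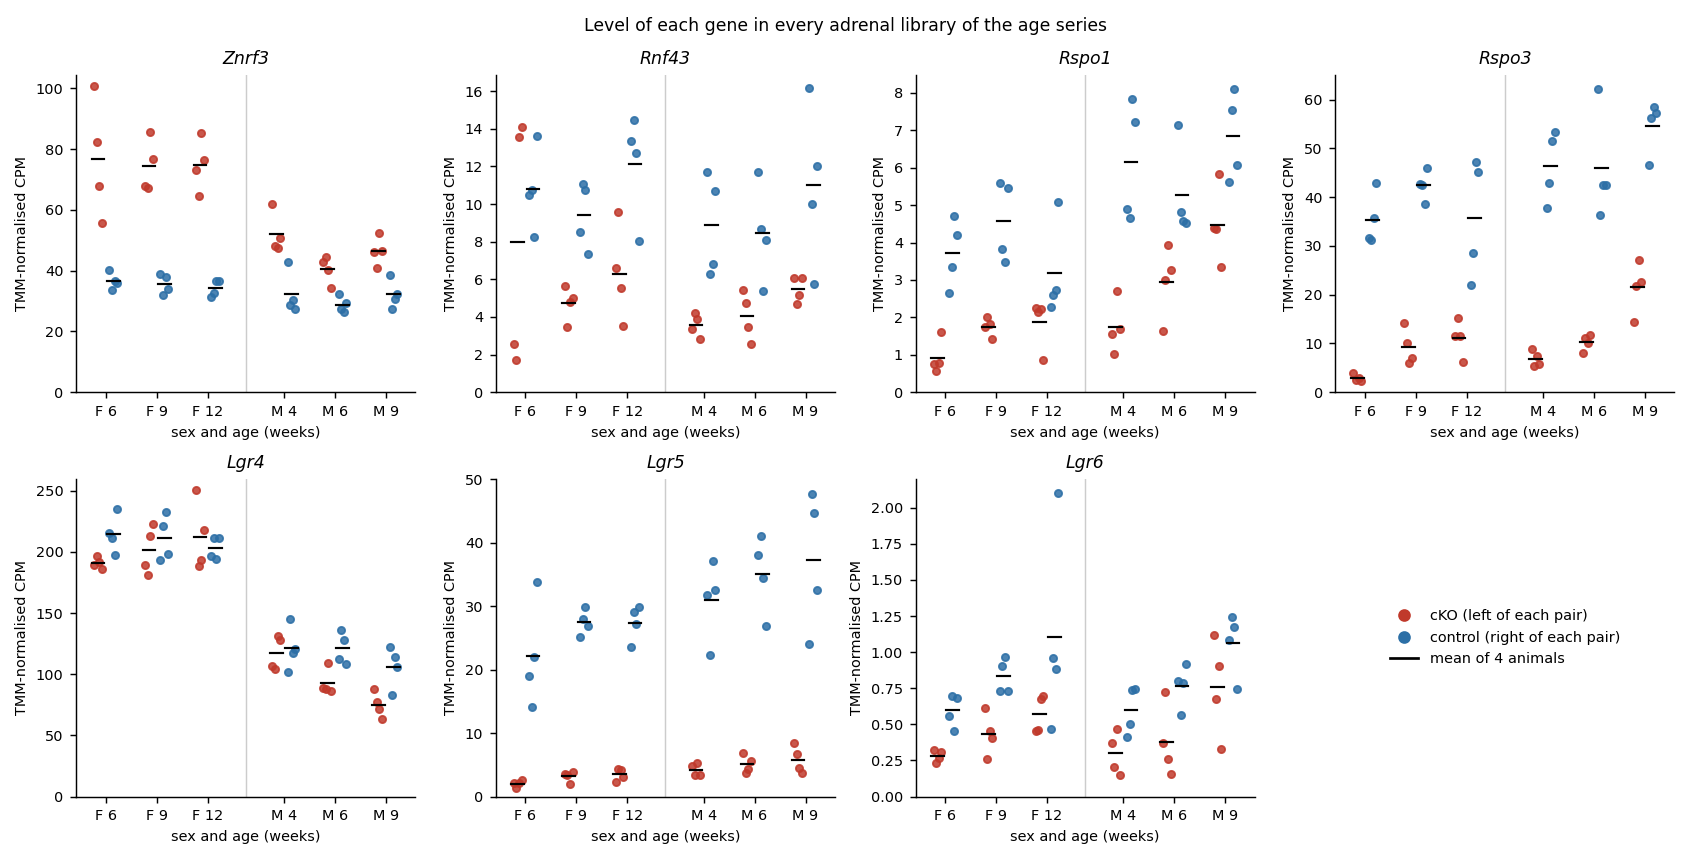
TMM-normalised CPM (y axes, linear from 0, a scale for each gene) in every library of the age series, by sex and age in weeks (x axes), cKO in red and control in blue with a bar at the mean of 4. Znrf3 points of cKO glands sit above the controls at each age, Rspo3 and Lgr5 points sit below them, and the 4 Rnf43 points of cKO females at 6 weeks form a low and a high pair.

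Rnf43, the other ligase (chr11:87662722-87735539, plus strand), went the other way. In males at 4 weeks it was at 3.36, 4.24, 3.87 and 2.85 CPM in cKO glands and 11.7, 6.30, 6.81 and 10.7 CPM in control glands, with no overlap. The 6-week cKO males had 5.45, 4.72, 3.48 and 2.56 CPM and their controls 11.7, 8.69, 5.38 and 8.08 CPM, where control 3 lay among the cKO values. The 9-week cKO males had 6.06, 4.70, 5.15 and 6.05 CPM and their controls 16.2, 9.99, 5.77 and 12.04 CPM, again overlapping only through control 3. Rnf43 fell at all 3 male ages, with log2 fold changes of -1.31 ± 0.29 (adjusted p = 0.00198), -1.06 ± 0.29 (adjusted p = 0.0109) and -1.0 ± 0.28 (adjusted p = 0.0123). The call was lost at 6 weeks without cKO 4, at -0.87 (adjusted p = 0.0524), or without control 1, at -0.83 (adjusted p = 0.0619), and at 9 weeks without control 1, at -0.76 (adjusted p = 0.066), or with only library numbers up to 24, at -1.27 (adjusted p = 0.0624).

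In females Rnf43 split the youngest cKO animals. At 6 weeks the 4 cKO females had 2.59, 1.70, 13.6 and 14.1 CPM and the 4 control females 10.5, 10.8, 8.27 and 13.6 CPM. Animals 1 and 2 of the cKO group lay below every control, and animals 3 and 4 at the level of the highest control. Over all genes animal 4 differed from animals 1, 2 and 3 by 74.2 to 101.8 times the counting variance. Animals 1, 2 and 3 differed from each other by 26.3 to 41.8 times. The log2 fold change was -0.44 ± 0.45 (adjusted p = 0.492), with an interval of -1.31 to 0.44. In females of 9 weeks the level was 5.67, 3.49, 4.80 and 5.02 CPM in cKO and 8.50, 11.1, 10.8 and 7.35 CPM in control glands, and the groups did not overlap. In females of 12 weeks the level was 6.59, 9.56, 5.52 and 3.55 CPM in cKO and 13.4, 14.5, 12.7 and 8.06 CPM in control glands. Log2 fold changes were -0.99 ± 0.46 (adjusted p = 0.0991) at 9 weeks and -0.95 ± 0.45 (adjusted p = 0.132) at 12 weeks and missed the threshold. With a fit limited to the groups compared, which leaves the 6-week animals out of the estimate of spread, both passed it, at -0.97 (adjusted p = 0.00217) and -0.94 (adjusted p = 0.0426). The genotype effect of females minus that of males was 0.65 ± 0.73 (adjusted p = 0.65) at 6 weeks (interval -0.78 to 2.08) and 0.02 ± 0.34 (adjusted p = 0.978) at 9 weeks (interval -0.65 to 0.69).

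Rspo3, the R-spondin that the adrenal capsule is best known for, was far below control in young cKO glands, and its level returned part of the way with age. Glands of 6-week females held 3.98, 2.45, 2.83 and 2.36 CPM in the cKO group and 31.5, 31.3, 35.8 and 42.9 CPM in the control group. Glands of 9-week females held 14.2, 10.1, 5.89 and 6.97 CPM in the cKO group and 42.7, 42.4, 38.7 and 45.9 CPM in the control group. Glands of 12-week females held 11.6, 15.2, 11.6 and 6.10 CPM in the cKO group and 22.1, 28.5, 47.1 and 45.2 CPM in the control group. No cKO female reached the lowest control of the same age. Rspo3 was 12.2-, 4.55- and 3.22-fold lower in cKO females at 6, 9 and 12 weeks, with log2 fold changes of -3.61 ± 0.30 (adjusted p = 5.07e-09), -2.19 ± 0.28 (adjusted p = 2.36e-06) and -1.69 ± 0.27 (adjusted p = 7.36e-05). The gene lies at chr10:29452416-29535867 on the minus strand, and its exons overlap those of an antisense gene, Gm48159, which had at most 3 counts in any library.

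Rspo3 was also low in male cKO glands at every age. At 4 weeks cKO males had 8.84, 5.31, 7.51 and 5.77 CPM of Rspo3 and control males 37.8, 42.9, 51.6 and 53.4 CPM. Values for males at 6 weeks were 8.06, 11.05, 10.1 and 11.7 CPM in cKO and 62.1, 36.4, 42.5 and 42.5 CPM in control glands. Values for males at 9 weeks were 14.3, 21.8, 27.2 and 22.7 CPM in cKO and 46.6, 56.2, 58.5 and 57.3 CPM in control glands. The groups stayed apart at each age while the gap narrowed, with log2 fold changes of -2.74 ± 0.20 (adjusted p = 1.14e-08), -2.17 ± 0.20 (adjusted p = 3.06e-08) and -1.35 ± 0.19 (adjusted p = 1.39e-05). In cKO glands alone Rspo3 rose by 1.94 ± 0.29 (adjusted p = 0.000409) on the log2 scale at 12 over 6 weeks in females and by 1.63 ± 0.20 (adjusted p = 5.2e-06) at 9 over 4 weeks in males. In control glands the same spans gave 0.02 ± 0.26 (adjusted p = 0.999) in females and 0.24 ± 0.18 (adjusted p = 0.525) in males. The change of the genotype effect itself passed the test in both sexes, at 1.92 ± 0.39 (adjusted p = 0.0338) in females, where 0.322% of genes were called, and 1.39 ± 0.27 (adjusted p = 0.00827) in males, where 4.92% were.

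That female change was close to the threshold. Leaving out 1 library ended the call in 10 of 16 cases, namely without control 3 or 4 or cKO 2, 3 or 4 at 6 weeks and without control 1 or 2 or cKO 1, 2 or 3 at 12 weeks, with values of 1.73 to 1.91 and adjusted p of 0.0575 to 0.0879. It was also lost with only the groups compared, at 1.93 (adjusted p = 0.0602). In males every library could be left out, but the change was 1.12 (adjusted p = 0.0694) with a term for the range of library numbers and 0.93 (adjusted p = 0.478) with only numbers up to 24. Between the sexes, the Rspo3 effect was larger in females at 6 weeks: the effect in females minus that in males was -1.43 ± 0.26 (adjusted p = 0.0043), where 7.63% of genes were called, and -0.83 ± 0.30 (adjusted p = 0.0981) at 9 weeks. Sex and table coincide here, and the male groups at 6 weeks differ in library number, so sex cannot be told apart from these. The 9-week value passed the threshold without cKO female 1, at -1.10 (adjusted p = 0.0183), and without cKO male 1, at -0.97 (adjusted p = 0.0336).

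The promoters of Lgr4 and Rspo1, which moved in opposite directions after castration, are shown from the RefSeq sequences of GRCm38.p6, as 250 bases before the start site in lower case and the first 25 transcribed bases in capitals. They cover chr2:109917397-109917671 for Lgr4 and chr4:124986180-124986454 for Rspo1, both on the plus strand.
Lgr4: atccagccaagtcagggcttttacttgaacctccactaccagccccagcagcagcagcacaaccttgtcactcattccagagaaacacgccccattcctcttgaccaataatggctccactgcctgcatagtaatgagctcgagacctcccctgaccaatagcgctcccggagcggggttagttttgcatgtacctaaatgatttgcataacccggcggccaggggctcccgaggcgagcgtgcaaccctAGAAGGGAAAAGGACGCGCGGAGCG
Rspo1: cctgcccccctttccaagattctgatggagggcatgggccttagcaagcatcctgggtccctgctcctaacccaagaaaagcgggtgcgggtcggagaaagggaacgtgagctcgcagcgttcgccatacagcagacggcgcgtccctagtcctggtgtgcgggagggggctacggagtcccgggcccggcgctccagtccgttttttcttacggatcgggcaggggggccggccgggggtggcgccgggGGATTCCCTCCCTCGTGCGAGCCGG
RefSeq windows were at hand for 4 of the 7 members (Rspo1, Lgr4, Lgr6 and 2 for Rnf43), and each window of 300 bases was searched on both strands for CTTTGA and CTTTGT, the core letters bound by TCF/LEF factors. No window held either, while 31.2% of all 32851 promoter windows of that length did. The windows of Rspo1, Lgr6 and Lgr4 held 29, 24 and 18 CG dinucleotides and those of Rnf43 10 and 3, beside a median of 7 over all windows.

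Rspo1, the other R-spondin with enough counts to test (chr4:124986430-125009099, plus strand), moved in the same direction. At 6 weeks cKO females had 0.755, 0.567, 0.775 and 1.61 CPM and control females 2.64, 3.35, 4.71 and 4.19 CPM. At 9 weeks cKO females had 1.75, 2.01, 1.82 and 1.41 CPM and control females 5.59, 3.82, 3.48 and 5.45 CPM. At 12 weeks cKO females had 2.25, 2.15, 2.22 and 0.858 CPM and control females 2.29, 2.59, 2.74 and 5.08 CPM. It fell at 6 and 9 weeks, with log2 fold changes of -2.0 ± 0.33 (adjusted p = 5.98e-05) and -1.39 ± 0.32 (adjusted p = 0.00177), and at 12 weeks the value was -0.77 ± 0.32 (adjusted p = 0.0839) although no cKO value reached a control one. The effect at 12 weeks minus that at 6 weeks was 1.23 ± 0.46 (adjusted p = 0.312), so no change with age was shown.

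In males at 4 weeks Rspo1 was at 1.55, 1.02, 2.70 and 1.68 CPM in cKO glands and 4.90, 4.67, 7.85 and 7.23 CPM in control glands. The 6-week cKO males had 1.64, 2.997, 3.94 and 3.26 CPM and their controls 7.14, 4.81, 4.59 and 4.53 CPM. The 9-week cKO males had 4.38, 4.36, 5.82 and 3.36 CPM and their controls 5.62, 7.55, 8.11 and 6.06 CPM, and the groups overlapped through cKO 3. Log2 fold changes were -1.83 ± 0.28 (adjusted p = 4.18e-05), -0.83 ± 0.28 (adjusted p = 0.0359) and -0.61 ± 0.26 (adjusted p = 0.0987). The 6-week call was lost without cKO 1, 2 or 4 or control 1, 2 or 3, with values from -0.86 to -0.60 and adjusted p of 0.0521 to 0.16, and was -0.65 (adjusted p = 0.336) with a term for the range of library numbers, -0.79 (adjusted p = 0.0605) with no count filter and -0.82 (adjusted p = 0.0524) with only the groups compared. At 4 weeks the value with library numbers up to 24 was -1.50 (adjusted p = 0.0878). In cKO males Rspo1 rose by 1.38 ± 0.28 (adjusted p = 0.00056) on the log2 scale at 9 over 4 weeks, where 41.7% of genes were called, against 0.15 ± 0.26 (adjusted p = 0.812) in control males. The change of the genotype effect was 1.22 ± 0.38 (adjusted p = 0.062), passing the threshold without cKO male 3 at 4 weeks, at 1.49 (adjusted p = 0.0392), or control male 2 at 4 weeks, at 1.32 (adjusted p = 0.0474).

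The other R-spondin genes were barely counted. Rspo2 had at most 11 counts in a female library, 5 in a male one and 6 in the surgery series, and was at 0 in 7 of 24, 6 of 24 and 1 of 8 libraries. Rspo4 was at 0 in 20 of 24, 19 of 24 and 8 of 8 libraries, and had at most 4 counts elsewhere. Neither passed the filter, so no comparison was made for them.

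Lgr5, the receptor that marks stem cells in the intestine and hair follicle, fell in every genotype comparison. In females of 6 weeks the level was 2.17, 1.27, 2.08 and 2.58 CPM in cKO and 18.9, 14.1, 22.01 and 33.7 CPM in control glands. In females of 9 weeks the level was 3.54, 3.34, 1.93 and 3.85 CPM in cKO and 25.1, 28.02, 29.8 and 26.8 CPM in control glands. In females of 12 weeks the level was 2.28, 4.41, 4.12 and 3.13 CPM in cKO and 23.6, 29.1, 27.1 and 29.8 CPM in control glands. The highest cKO female, at 12 weeks, was well below the lowest control of any age. Lgr5 was 10.97-, 8.65- and 7.86-fold lower in cKO females, with log2 fold changes of -3.46 ± 0.26 (adjusted p = 1.37e-09), -3.11 ± 0.26 (adjusted p = 7.38e-09) and -2.98 ± 0.25 (adjusted p = 1.46e-08). It lies at chr10:115450311-115587780 on the minus strand.

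Lgr5 was also low in every male cKO gland. Glands of 4-week males held 4.74, 3.37, 5.34 and 3.36 CPM in the cKO group and 31.7, 22.3, 37.03 and 32.5 CPM in the control group. Glands of 6-week males held 6.87, 3.77, 4.33 and 5.67 CPM in the cKO group and 37.97, 41.1, 34.5 and 26.8 CPM in the control group. Glands of 9-week males held 8.50, 6.67, 4.44 and 3.69 CPM in the cKO group and 23.9, 47.7, 44.6 and 32.5 CPM in the control group. The groups never overlapped, and log2 fold changes were -2.87 ± 0.26 (adjusted p = 5.14e-08), -2.78 ± 0.27 (adjusted p = 6.14e-08) and -2.67 ± 0.26 (adjusted p = 1.49e-07). No change of the effect with age was shown, with 0.48 ± 0.35 in females (interval -0.20 to 1.16; adjusted p = 0.679) and 0.19 ± 0.36 in males (interval -0.51 to 0.89; adjusted p = 0.788). In cKO females alone the value at 12 over 6 weeks was 0.78 ± 0.26 (adjusted p = 0.0578), and it passed the threshold without cKO 4 at 6 weeks, at 0.93 (adjusted p = 0.0465), or without cKO 1 at 12 weeks, at 0.94 (adjusted p = 0.0316). The effect in females minus that in males was -0.66 ± 0.37 (adjusted p = 0.314) at 6 weeks and -0.42 ± 0.36 (adjusted p = 0.482) at 9 weeks.

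Lgr4, the most broadly expressed of the Lgr receptors (chr2:109917647-110014257, plus strand), was not called in any comparison of females. Values for females at 6 weeks were 189, 197, 192 and 186 CPM in cKO and 216, 211, 197 and 235 CPM in control glands. Values for females at 9 weeks were 189, 181, 213 and 223 CPM in cKO and 193, 221, 232 and 198 CPM in control glands. Values for females at 12 weeks were 250.4, 189, 193 and 218 CPM in cKO and 197, 211, 195 and 211 CPM in control glands. None of the 3 comparisons passed the test, and their intervals were short: -0.17 (-0.33 to -0.01; adjusted p = 0.125), -0.07 (-0.23 to 0.10; adjusted p = 0.58) and 0.06 (-0.10 to 0.23; adjusted p = 0.636).

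In males Lgr4 fell at 6 and 9 weeks but did not pass the test at 4 weeks. At 4 weeks cKO males had 107, 104, 131 and 128 CPM and control males 102, 145, 117 and 121 CPM, with a log2 fold change of -0.04 ± 0.13 (adjusted p = 0.857). At 6 weeks cKO males had 88.8, 88.2, 109 and 85.9 CPM and control males 113, 136, 128 and 109 CPM. At 9 weeks cKO males had 87.7, 77.5, 71.3 and 63.3 CPM and control males 122, 82.7, 114 and 106 CPM, and a single cKO value overlapped the controls at each of these ages. Log2 fold changes were -0.38 ± 0.13 (adjusted p = 0.0364) and -0.50 ± 0.13 (adjusted p = 0.00646). The 6-week call was lost without cKO 1, 2 or 4 or control 1, 2 or 3, with values from -0.38 to -0.31 and adjusted p of 0.0554 to 0.133. It was -0.37 (adjusted p = 0.231) with a term for the range of library numbers and -0.35 (adjusted p = 0.0647) with no count filter, and the 9-week value was -0.30 (adjusted p = 0.392) with numbers up to 24. In cKO males Lgr4 fell by 0.65 on the log2 scale at 9 over 4 weeks (adjusted p = 0.000388), against -0.19 ± 0.13 (adjusted p = 0.446) in control males. The change of the genotype effect was -0.46 ± 0.18 (adjusted p = 0.128), which passed the threshold without control male 2 at 9 weeks, at -0.57 (adjusted p = 0.0409), or cKO male 1 at 9 weeks, at -0.60 (adjusted p = 0.0331). Likewise the effect in females minus that in males at 9 weeks, 0.45 ± 0.17 (adjusted p = 0.109), passed without the same 2 libraries, at 0.62 (adjusted p = 0.0214) and 0.54 (adjusted p = 0.0424).

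Lgr6, the third receptor (chr1:134983301-135105276, minus strand), was counted at the edge of detection, with 11 to 96 counts per female library, 2 to 26 per male library and 11 to 52 in the surgery series. Levels in females ran from 0.235 to 0.320, 0.263 to 0.614 and 0.455 to 0.696 CPM in cKO glands at 6, 9 and 12 weeks, against 0.452 to 0.698, 0.728 to 0.966 and 0.468 to 2.10 CPM in control glands. It fell at each female age, with log2 fold changes of -1.07 ± 0.35 (adjusted p = 0.0222), -0.93 ± 0.34 (adjusted p = 0.038) and -0.95 ± 0.33 (adjusted p = 0.0371). These calls were close to the threshold, and leaving out 1 library could end each of them. At 6 weeks the value was -0.97 (adjusted p = 0.0644) without cKO 2, -0.99 (adjusted p = 0.0549) without control 2 and -1.0 (adjusted p = 0.0553) without control 4. At 9 weeks it lost its call without cKO 2, 3 or 4 or control 2 or 3, with values from -0.95 to -0.75 and adjusted p of 0.0641 to 0.122. At 12 weeks it was -0.85 (adjusted p = 0.0997) without cKO 1, -0.86 (adjusted p = 0.0915) without cKO 2 and -0.43 (adjusted p = 0.31) without control 4, which at 2.10 CPM was the highest Lgr6 value of the females. A fit without the count filter gave -0.90 (adjusted p = 0.0755) at 9 and -0.92 (adjusted p = 0.0702) at 12 weeks, and one limited to the 12-week groups gave -0.94 (adjusted p = 0.141).

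In males Lgr6 levels ran from 0.146 to 0.469, 0.155 to 0.722 and 0.330 to 1.12 CPM in cKO glands at 4, 6 and 9 weeks, against 0.412 to 0.748, 0.562 to 0.920 and 0.747 to 1.24 CPM in control glands. The groups overlapped at each age, and log2 fold changes of -0.93 ± 0.43 (adjusted p = 0.141), -0.96 ± 0.43 (adjusted p = 0.126) and -0.47 ± 0.37 (adjusted p = 0.393) missed the threshold. Without cKO 2 the 6-week value was -1.48 (adjusted p = 0.0325). In cKO males Lgr6 rose by 1.29 ± 0.42 (adjusted p = 0.0167) on the log2 scale at 9 over 4 weeks, a call lost without cKO 4 at 4 weeks, at 1.13 (adjusted p = 0.0518), or cKO 1 at 9 weeks, at 1.02 (adjusted p = 0.0738), or with only library numbers up to 24, at 1.55 (adjusted p = 0.0696).

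Counted over the module, sex and age gave fewer calls than any genotype comparison, except age in cKO males. Age in cKO males called as many members as genotype did in females at 12 weeks. At 12 over 6 weeks in cKO females 1 member rose (Rspo3) and none fell, beside 6.03% and 3.9% of genes called higher and lower (9.93% in all), and 2 members (Rspo3 and Lgr6) did not overlap between the ages, beside 13% of genes. In control females no member passed the test and none was free of overlap, beside 0.0912% of genes called, all 0.0912% of them higher, and 5.84% without overlap. At 9 over 4 weeks in cKO males 3 members rose (Rspo1, Rspo3 and Lgr6) and 1 fell (Lgr4), beside 20.8% of genes called higher and 20.9% lower, and 4 did not overlap (Rspo1, Rspo3, Lgr4 and Rnf43), beside 34.3%. In control males none passed the test and none was free of overlap, beside 3.13% of genes called (0.913% higher and 2.22% lower) and 9.99% without overlap. The genotype effect changed with age for Rspo3 alone of the 7 in each sex, upwards, beside 0.316% of genes called upwards and 0.00536% downwards in females and 2.94% and 1.97% in males. Of the sex differences, 1 of 7 was called at 6 weeks (Rspo3, lower in females; 2.55% of genes were called higher and 5.08% lower) and 1 of 7 at 9 weeks (Znrf3, higher in females; 3.29% and 5.39%). Rnf43 in cKO males, at 0.61 ± 0.29 (adjusted p = 0.0932) for 9 over 4 weeks, missed the threshold and passed it with only the groups compared, at 0.61 (adjusted p = 0.029), and with a term for the range of library numbers, at 0.80 (adjusted p = 0.047). In cKO females Rspo1 missed the threshold, at 1.01 ± 0.34 (adjusted p = 0.0589), and passed it without cKO 4 at 6 weeks, at 1.42 (adjusted p = 0.0119), or without cKO 4 at 12 weeks, at 1.25 (adjusted p = 0.0174).

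Set on a per-length scale (CPM per kb of merged exons), the members kept a wide spread of levels. In control females at 6 weeks the order was Lgr4 at 36.5 ± 2.62 (SD, n = 4), Rspo3 at 11.4 ± 1.75, Znrf3 at 4.63 ± 0.361, Lgr5 at 2.16 ± 0.815, Rspo1 at 1.92 ± 0.470, Rnf43 at 1.64 ± 0.336 and Lgr6 at 0.0870 ± 0.0168 CPM per kb. Lgr5, Rspo1 and Rnf43 overlapped in that group and have no order among them. In cKO females at 6 weeks Lgr4 stayed first at 32.4 ± 0.764, Znrf3 was next at 9.72 ± 2.47 and Lgr6 last at 0.0413 ± 0.00576, while Rnf43, Rspo3 and Rspo1 overlapped at 1.22 ± 1.03, 0.940 ± 0.242 and 0.478 ± 0.240, above Lgr5 at 0.198 ± 0.0535 CPM per kb. Znrf3 stood above Rspo3 in cKO glands of 5 of 6 age groups, and in cKO males at 9 weeks the pair overlapped, at 6.95 ± 1.73 for Rspo3 and 5.89 ± 0.595 for Znrf3. In control males at 9 weeks Lgr4 and Rspo3 overlapped, at 18.02 ± 2.87 and 17.7 ± 1.77 CPM per kb. Lgr4 made up 99.3% ± 0.193 of the summed per-length level of the 3 Lgr genes in cKO females at 6 weeks, against 94.3% ± 1.66 in control females, and 95.1% ± 1.12 in cKO males at 9 weeks, against 82.3% ± 6.26 in control males. Znrf3 made up 92.9% ± 1.43 of the 2 ligases in cKO females at 9 weeks, against 75.95% ± 4.17 in control females. These levels and shares are over a whole gland and do not say which cells held the transcripts.

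**Figure D3:**
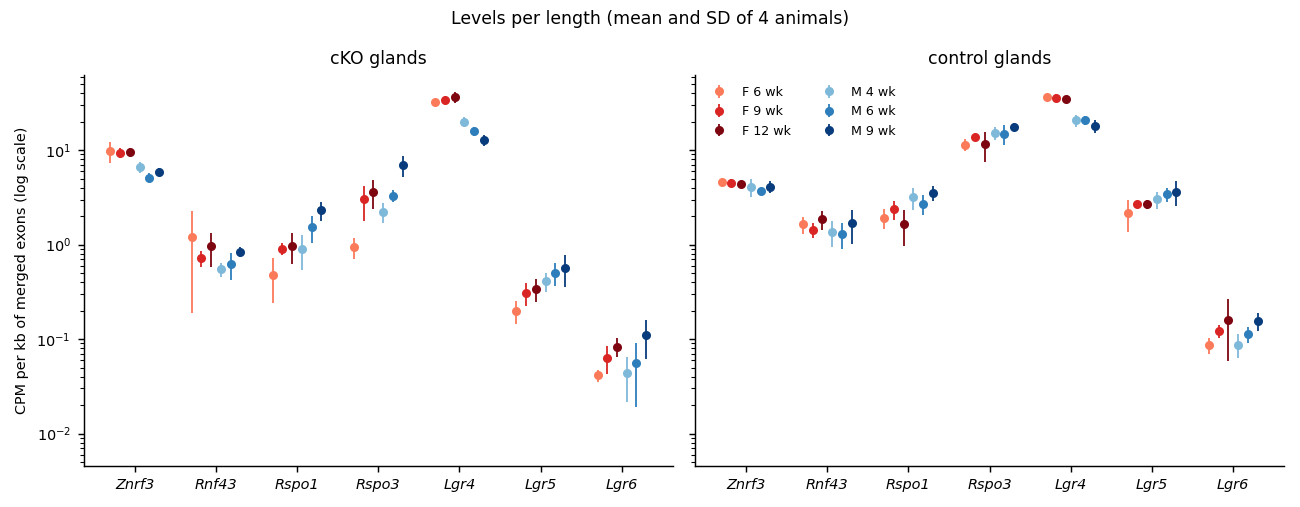
CPM per kb of merged exons (y axes, log scale) of each gene in cKO glands (left) and control glands (right), as the mean and SD of 4 animals for females at 6, 9 and 12 weeks (reds) and males at 4, 6 and 9 weeks (blues). Lgr4 is the highest and Lgr6 the lowest mean in both panels, and Rspo3 and Lgr5 sit lower in cKO glands.

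In cKO males castrated at week 4, Lgr4 rose while Lgr5 and both R-spondins fell. Lgr4 was at 203, 209.7, 192 and 164 CPM in the castrated animals and 70.4, 86.4, 95.5 and 92.2 CPM in the sham animals. Every castrated gland was above every sham gland, by 2.23-fold, with a log2 fold change of 1.16 ± 0.13 (adjusted p = 6.04e-05). Lgr5 was at 2.10, 2.06, 0.853 and 1.11 CPM in the castrated animals and 7.89, 4.67, 10.1 and 4.48 CPM in the sham animals, a fall of 4.44-fold with a log2 fold change of -2.15 ± 0.37 (adjusted p = 0.00103). Rspo3 was at 14.6, 8.94, 6.58 and 11.3 CPM in the castrated animals and 44.2, 45.5, 31.7 and 42.7 CPM in the sham animals, or -1.99 ± 0.23 (adjusted p = 7.73e-05) as a log2 fold change. Rspo1 was at 2.32, 1.25, 1.32 and 1.99 CPM in the castrated animals and 7.22, 4.90, 3.29 and 5.87 CPM in the sham animals, or -1.63 ± 0.30 (adjusted p = 0.00144). None of these 4 genes overlapped between the groups, as for 43.1% of all genes tested, and the 1 rise and 3 falls stand beside 19.8% and 23.8% of genes called higher and lower. No single library ended any of the 4 calls. Without sham 1 the log2 fold changes were 1.07 (adjusted p = 2.67e-05) for Lgr4, -2.07 (adjusted p = 0.00179) for Lgr5, -1.95 (adjusted p = 0.000124) for Rspo3 and -1.45 (adjusted p = 0.00237) for Rspo1, and 47.3% of genes were called.

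The ligases and Lgr6 were not called after castration. Znrf3 was at 56.1, 64.1, 64.9 and 58.9 CPM in the castrated animals and 39.9, 57.5, 57.1 and 48.9 CPM in the sham animals, with a log2 fold change of 0.26 (interval 0.01 to 0.52; adjusted p = 0.126). Rnf43 was at 5.42, 6.19, 4.76 and 7.59 CPM in the castrated animals and 4.41, 9.18, 11.1 and 9.10 CPM in the sham animals, with -0.50 (interval -1.02 to 0.03; adjusted p = 0.155). Sham 1 had the lowest value of both ligases, and without it the Rnf43 value passed the threshold, at -0.71 (adjusted p = 0.0104), while Znrf3 was at 0.16 (adjusted p = 0.174) and Lgr6 at -0.63 (adjusted p = 0.25). Lgr6 ran from 0.406 to 0.633 CPM in castrated and 0.312 to 1.15 CPM in sham animals, at -0.66 ± 0.39 (adjusted p = 0.193), and -0.93 (adjusted p = 0.0444) without sham 2. The surgery series holds no glands without Cre, so whether castration acts on these genes in the absence of the knockout was not measured, and reporter alleles were not balanced between its groups.

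**Figure D4:**
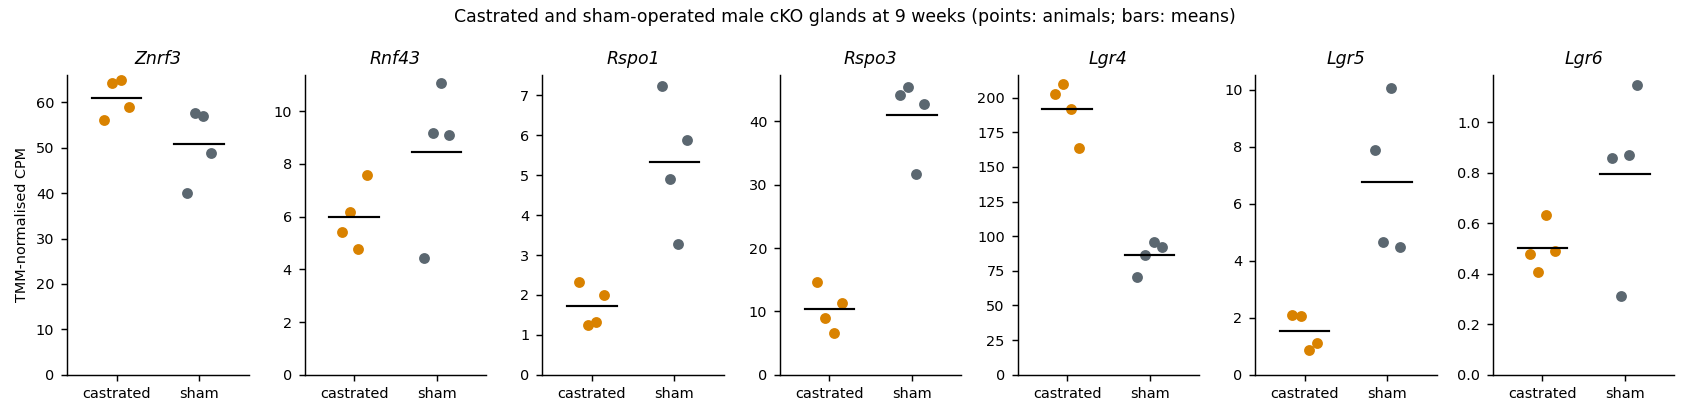
TMM-normalised CPM (y axes, linear from 0) of each gene in castrated (orange, left) and sham-operated (grey, right) male cKO glands at 9 weeks, with 4 animals a group and bars at the means. Lgr4 is the gene whose castrated values all lie above the sham values, and Rspo1, Rspo3 and Lgr5 lie below them.

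Genes of the Wnt receptor complex, on which the ligases act, were counted beside the share of all genes tested. Of 15 Frizzled, LRP and related receptor genes, 1 rose and 7 fell in cKO females at 6 weeks, 0 rose and 7 fell at 9 weeks, and 0 rose and 2 fell at 12 weeks. In males 0 rose and 2 fell at 4 weeks, 1 rose and 1 fell at 6 weeks, and 0 rose and 6 fell at 9 weeks. Of all genes tested 19.1%, 20% and 16% fell in females and 12.9%, 11.9% and 13.6% in males, in the same order. Shares that rose were 14.2%, 14.6% and 9.11% in females and 6.29%, 8.19% and 10.4% in males. The receptor falls at 12 weeks in females and at 4 and 6 weeks in males were near or below these shares. The list's median log2 fold change ran from -0.28 to -0.06 over the 6 comparisons. Fzd2, a Frizzled receptor, averaged 6.82 ± 1.56 CPM in cKO females and 14.8 ± 2.85 CPM in control females at 6 weeks (SD, n = 4 each), at -1.12 ± 0.19 (adjusted p = 7.55e-05) on the log2 scale, and fell in 5 of 6 comparisons. Ror2, a receptor for Wnt proteins outside the beta-catenin pathway, averaged 9.01 ± 2.31 CPM in cKO males and 16.5 ± 3.78 CPM in control males at 9 weeks, at -0.87 ± 0.17 (adjusted p = 0.000568). After castration 1 receptor gene rose and 4 fell: Fzd8, another Frizzled, averaged 59.8 ± 5.29 CPM in castrated and 24.98 ± 2.78 CPM in sham animals, at 1.26 ± 0.12 (adjusted p = 2.15e-05). Of all genes 19.8% rose and 23.8% fell after castration, so the receptor falls were near that share. Without sham 1, which stood apart, 1 of the 15 receptor genes rose and 8 fell. Of the 17195 genes tested without it 3854 rose and 4282 fell, or 47.3% in both directions together.

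Between 5 and 7 of 12 Wnt/beta-catenin target genes fell at each age. In cKO females 7, 7 and 6 fell at 6, 9 and 12 weeks and 1 rose each time. In males 7, 5 and 7 fell at 4, 6 and 9 weeks, and 2, 1 and 0 rose. Of all genes tested 19.1%, 20% and 16% fell in females and 12.9%, 11.9% and 13.6% in males. Shares that rose were 14.2%, 14.6% and 9.11% in females and 6.29%, 8.19% and 10.4% in males. The median log2 fold change of the list was -1.27, -1.05 and -0.80 in females and -0.79, -0.62 and -0.57 in males. Apcdd1, an inhibitor of Wnt signalling at the membrane, averaged 8.40 ± 2.56 CPM in cKO females and 49.97 ± 5.51 CPM in control females at 6 weeks, at -2.57 ± 0.19 (adjusted p = 1.01e-09), and fell in all 6 comparisons. Nkd1, a feedback inhibitor of the pathway, averaged 20.95 ± 5.07 CPM in cKO females and 70.4 ± 7.93 CPM in control females at 6 weeks, at -1.75 ± 0.16 (adjusted p = 1.76e-08), and Lef1, a TCF/LEF transcription factor, averaged 4.32 ± 0.824 CPM in cKO males and 11.8 ± 2.06 CPM in control males at 4 weeks, at -1.45 ± 0.22 (adjusted p = 2.91e-05). Axin2, the usual readout of the pathway and named here after its values were seen, gave 0.00 ± 0.13 (adjusted p = 0.994), -0.13 ± 0.13 (adjusted p = 0.474) and -0.01 ± 0.13 (adjusted p = 0.959) in females and 0.52 ± 0.16 (adjusted p = 0.0278), 0.58 ± 0.16 (adjusted p = 0.014) and 0.25 ± 0.16 (adjusted p = 0.292) in males. The 2 male calls of Axin2, at 4 and 6 weeks, are at the ages where library number is confounded with genotype. With a term for that range the genes called went from 3275 to 1701 at 4 weeks and from 3435 to 1613 at 6 weeks. Axin2 and the other targets were not rerun with it. After castration 2 targets rose and 8 of the 11 tested fell (median -0.88, beside -0.01 for all genes tested), and the 3 with the smallest p went both ways. Notum, a secreted inhibitor that inactivates Wnt proteins, averaged 3.41 ± 0.365 CPM in castrated and 14.6 ± 2.48 CPM in sham animals, at -2.10 ± 0.17 (adjusted p = 9.06e-06), and Nkd1 gave -1.29 ± 0.11 (adjusted p = 1.15e-05). Tnfrsf19, a receptor of the TNF receptor family, rose, averaging 237 ± 35.5 CPM in castrated and 89.8 ± 11.6 CPM in sham animals, at 1.40 ± 0.14 (adjusted p = 3.66e-05). Axin2 fell there, at -0.88 ± 0.14 (adjusted p = 0.000714). Of all genes 19.8% rose and 23.8% fell after castration. Without sham 1 the target counts of 2 and 8 were the same, where 3854 of 17195 genes rose and 4282 fell.

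Markers of the cells around the cortex were counted in the same comparisons. Of all genes tested 19.1%, 20% and 16% fell in females at 6, 9 and 12 weeks. In males 12.9%, 11.9% and 13.6% fell at 4, 6 and 9 weeks. Shares that rose were 14.2%, 14.6% and 9.11% in females and 6.29%, 8.19% and 10.4% in males. After castration 19.8% rose and 23.8% fell. The same shares stand beside the marker counts of the paragraphs that follow. Of 12 capsule and fibroblast markers 8, 11 and 10 fell in cKO females at 6, 9 and 12 weeks, with medians of -1.25, -1.13 and -0.89, and 9, 6 and 3 fell in cKO males at 4, 6 and 9 weeks, with medians of -1.10, -0.54 and -0.31 and 1 that rose at 9 weeks. Their summed level was 349 to 649 CPM in cKO and 732 to 945 CPM in control females at 6 weeks, and 685 to 1116 CPM in cKO and 869.6 to 1189 CPM in control males at 9 weeks. Rspo3 lay below the capsule median in these 6 comparisons and after castration, and Rspo1 in all of them but the 12-week females. After castration all 12 capsule markers fell, with a median of -1.45 and sums of 359 to 487 CPM in castrated and 974 to 1121 CPM in sham animals. The effect in males changed with age for 6 of these 12 markers, all upwards, as for Rspo3, beside 2.94% of all genes. In females it changed for 0 of 12, beside 0.316% of genes upwards. The marker changes in males were not rerun with library number. With a term for that range the genes called for this change went from 840 to 13, and Rspo3 lost its call. The part of these markers' cells in the Rspo1 and Rspo3 values was not tested.

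All 12 medulla markers, such as Th and Chga of chromaffin cells, fell in each of the 6 genotype comparisons, with medians between -3.24 and -2.51, while Lgr5 lay between -3.46 and -2.67. Their summed level was 288 to 548 CPM in cKO and 4288 to 5627 CPM in control females at 6 weeks, and 976 to 1596 CPM in cKO and 5703 to 10419 CPM in control males at 9 weeks. Of 8 zona glomerulosa markers 8, 8 and 7 fell in cKO females and 6, 5 and 4 in cKO males, with medians from -1.78 to -0.66. Their sums were 614 to 776 CPM in cKO and 1912 to 2101 CPM in control females at 6 weeks. After castration all 12 medulla and all 8 zona glomerulosa markers fell, with medians of -1.50 and -1.26, and the medulla sum was 365 to 813 CPM in castrated and 1070.3 to 2116 CPM in sham animals. None of these markers was at 0 in all libraries of a group. Their part in the Lgr5 and Rnf43 values was not tested.

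The Lgr4 rise after castration stood beside a rise of cortical genes. Of 10 steroidogenic markers 6 rose and 1 fell after castration, with a median of 0.80 and sums of 69828 to 79896 CPM in castrated and 27944 to 40699 CPM in sham animals. Of 12 macrophage markers 10 fell, with sums of 457 to 738 CPM in castrated and 1977 to 3326 CPM in sham animals. In cKO females at 6, 9 and 12 weeks 2, 2 and 2 of the steroidogenic markers rose and 2, 2 and 0 fell, and in cKO males at 4, 6 and 9 weeks 1, 0 and 0 rose and 0, 3 and 2 fell. Macrophage markers rose, 8, 9 and 7 of 12 in females and 1, 10 and 10 in males, and none fell. Of 10 endothelial markers 1, 1 and 1 rose and 9, 9 and 3 fell in females, with medians of -0.34, -0.46 and -0.17, whereas in males 0, 6 and 3 rose and 3, 0 and 0 fell, with medians of -0.18, 0.37 and 0.10. Of 6 Schwann cell markers 1, 1 and 1 rose and 4, 4 and 4 fell in females, and none rose and 5, 5 and 2 fell in males. Of 5 liver and fat markers 0, 1 and 2 rose in females and 0, 0 and 2 in males, and none fell. After castration 9 of the endothelial markers fell and none rose, and 1 Schwann cell marker rose and 5 fell. Without sham 1, 6 steroidogenic markers rose and 2 fell, 10 macrophage and 10 endothelial markers fell, and 11 of 12 medulla markers fell. In that fit 3854 of 17195 genes rose and 4282 fell. The part of these markers' cells in the Lgr4 values was not tested.

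**Figure D5:**
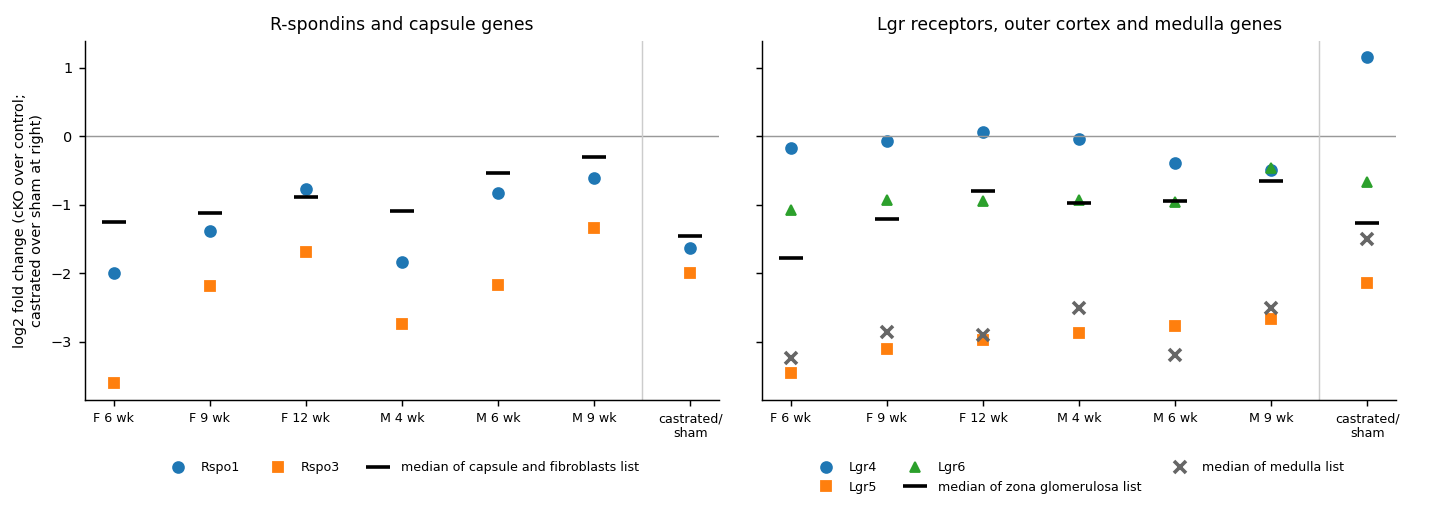
Log2 fold changes (y axis) of Rspo1 and Rspo3 beside the median of 12 capsule and fibroblast markers (left), and of Lgr4, Lgr5 and Lgr6 beside the medians of 8 zona glomerulosa and 12 medulla markers (right), in the 6 genotype comparisons and after castration (x axis). Rspo3 lies below the capsule median throughout, Lgr5 lies near the medulla median in the genotype comparisons, and Lgr4 is above 0 after castration at 1.16.

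The genes whose 6 genotype log2 fold changes were nearest to each member's, by the mean absolute difference over the 6 comparisons among 12987 candidates (12988 for Lgr6), were as follows. For Rspo3 they were Agtr1b, Cpb1 and Penk, at 0.15, 0.16 and 0.16. For Lgr5 they were Cacna1b, Insm1 and Chd5, at 0.11, 0.11 and 0.12. For Rspo1 they were Nbl1, Omd and Itgb4, at 0.06, 0.13 and 0.13, and for Lgr4 they were Lrpprc, Bicdl1 and Gnl3l, at 0.04, 0.04 and 0.05. For Lgr6 they were Carns1, Bend5 and Pknox2, at 0.07, 0.08 and 0.08. For Znrf3 they were Tmem255a, Hoxb5os and Dio3os, at 0.11, 0.14 and 0.14, and for Rnf43 Klhl32, Chrnb2 and Cadm3, at 0.16, 0.17 and 0.18. The 3 comparisons of a sex share a fit and are not independent, so this is a description.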

How the data were processed

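Poly(A) RNA of whole adrenal glands was sequenced from a directional library kit, per the labels' protocols. The deposited values are raw counts per Ensembl gene in 3 tables (24 female, 24 male and 8 surgery libraries). Per the submitters' processing notes, STAR 2.7.6a, RSEM 1.6.3, cutadapt 1.16, featureCounts and DESeq2 1.30.1 were used with GRCm38. Whether counting used strand is not stated in the labels. Symbols and positions came from the GENCODE annotation of the same build.

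From the counts, edgeR 4.0.16 under R 4.3.3 fitted each table (filterByExpr at a minimum count of 10, TMM, all groups of a table in 1 quasi-likelihood model) and tested 18645, 17086 and 16961 genes. Sex differences used a joint fit at 6 and 9 weeks (17681 and 17824 genes), and levels were tested only within a table. SEs come from the F statistic and intervals are 1.96 SE, which is approximate and too short with few animals. The p-values measure the spread between animals. Replicate libraries differed beyond sampling noise in all pairs, at 10.1 to 367.6 times the counting variance, the highest being those of sham 1. Named genes are the 7 members, Rspo2 and Rspo4, and at most 3 genes per list and comparison with the smallest p. Genes like a member needed an average log2 CPM of at least 1 in both sexes. Members and lists were chosen with earlier results of these data known. Alternatives were DESeq2 1.42.0, other scaling and filters, narrower fits, a replicate block, library numbers and leaving out each library. Fits were tested on simulated data.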

Additional observations from a re-analysis of the deposited data

Results flagged for a closer look

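In 4 of the 98 sets of 4 libraries (7 genes in 14 groups) a single animal stood apart from the other 3, where chance gives about 1 in 20. Rspo1 was at 0.858 CPM in cKO female 4 at 12 weeks, with the other 3 at 2.15 to 2.25 CPM. It was at 5.08 CPM in control female 4 of that age, with the others at 2.29 to 2.74 CPM. In control males at 6 weeks Rspo1 was at 7.14 CPM in animal 1, with the others at 4.53 to 4.81 CPM. Lgr4 was at 109 CPM in cKO male 3 at 6 weeks, with the others at 85.9 to 88.8 CPM.

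A difference between groups in the genotype effect passed its own test 4 times. For Rspo3 the effect was less negative at the last than at the first age, by 1.92 ± 0.39 (adjusted p = 0.0338) in females and 1.39 ± 0.27 (adjusted p = 0.00827) in males on the log2 scale, and at 6 weeks it was lower in females than in males, with a difference of -1.43 ± 0.26 (adjusted p = 0.0043). For Znrf3 it was higher in females than in males at 9 weeks, by 0.54 ± 0.16 (adjusted p = 0.0406). Each sex was counted in its own table, so these sex differences cannot be told apart from a difference between tables.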

How the results depend on the processing

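Of 669 values of single genes under other settings 630 kept their direction and side of the threshold, 20 lost a call, 8 gained one and 11 changed sign, and of 1064 with a library left out 976, 42, 17 and 29. The falls of Rspo3 and Lgr5 in cKO glands at all 6 ages, the rise of Znrf3 at the 3 female ages and the 4 castration calls kept their direction and call under every setting run. No called value changed sign, and Lgr6 had the fewest counts behind its calls. Some settings use fewer libraries or genes, and beyond that the cause of each change was not tested. Counts are of genes or members called. With DESeq2 the values that moved were 3 members for age in cKO females (against 1), 100 genes for age in control females (against 17), 288 genes for the change of effect in females (against 60), 2044 genes for the sex difference at 6 weeks (against 1349), 2 members for the sex difference at 6 weeks (against 1), 2518 genes for the sex difference at 9 weeks (against 1547), 932 genes for age in control males (against 535), 0.015 (log2) for Znrf3 under age in control males, 1677 genes for the change of effect in males (against 840) and 2 members for the change of effect in males (against 1). With the size factors of DESeq2 they were 0.016 (log2) for Znrf3 under age in control males. With no count filter they were 0.010 (log2) for Lgr4 under the genotype effect in males at 4 weeks and 0.012 (log2) for Znrf3 under age in control males. With a filter of CPM 1 in 4 libraries they were 0.019 (log2) for Znrf3 under age in control males. With the replicate number as a block they were 8 genes for age in control females (against 17), 35 genes for the change of effect in females (against 60), 0 members for the change of effect in females (against 1), 659 genes for the sex difference at 6 weeks (against 1349), -0.052 (log2) for Rnf43 under the sex difference at 9 weeks and 0.0048 (log2) for Znrf3 under age in control males. With only the groups compared in the fit they were 544 genes for age in cKO females (against 1852), 2 genes for age in control females (against 17), 15 genes for the change of effect in females (against 60), 0 members for the change of effect in females (against 1), 0.0025 (log2) for Znrf3 under age in control males and 343 genes for the change of effect in males (against 840). With a term for the library number range they were 1701 genes for the genotype effect in males at 4 weeks (against 3275), 1613 genes for the genotype effect in males at 6 weeks (against 3435), 3 members for the genotype effect in males at 6 weeks (against 6), 13 genes for the change of effect in males (against 840) and 0 members for the change of effect in males (against 1). With library numbers up to 24 they were 678 genes for the genotype effect in males at 4 weeks (against 3275), 3 members for the genotype effect in males at 4 weeks (against 5), 0.22 (log2) for Lgr4 under the genotype effect in males at 4 weeks, 624 genes for the genotype effect in males at 9 weeks (against 4110), 2 members for the genotype effect in males at 9 weeks (against 5), 3432 genes for age in cKO males (against 7123), 1 gene for age in control males (against 535), 0.019 (log2) for Lgr4 under age in control males, 1 gene for the change of effect in males (against 840), 0 members for the change of effect in males (against 1) and 0.11 (log2) for Znrf3 under the change of effect in males. Leaving out each library in turn gave ranges of 0 to 20 genes for age in control females, -0.15 to 0.19 (log2) for Rspo3 under age in control females, 11 to 143 genes for the change of effect in females, 0 to 1 members for the change of effect in females, -0.16 to 0.13 (log2) for Znrf3 under age in cKO females, -0.68 to 0.088 (log2) for Rnf43 under age in cKO females, 1 to 3 members for age in cKO females, -0.070 to 0.22 (log2) for Znrf3 under the change of effect in females, -0.12 to 0.65 (log2) for Lgr6 under the change of effect in females, -0.026 to 0.12 (log2) for Lgr4 under the genotype effect in females at 12 weeks and 1036 to 1603 genes for age in cKO females. It also gave 1 to 3 members for the sex difference at 6 weeks, -0.35 to 0.44 (log2) for Lgr6 under the sex difference at 6 weeks, -0.23 to 0.23 (log2) for Rnf43 under the sex difference at 9 weeks, 0 to 3 members for the sex difference at 9 weeks, 965 to 2356 genes for the sex difference at 9 weeks, -0.073 to 0.19 (log2) for Znrf3 under age in control males, -0.069 to 0.10 (log2) for Lgr4 under the genotype effect in males at 4 weeks, 290 to 2181 genes for the change of effect in males, 1 to 2 members for the change of effect in males, 3 to 6 members for the genotype effect in males at 6 weeks, 150 to 663 genes for age in control males and -0.11 to 0.32 (log2) for Lgr5 under the change of effect in males. DESeq2 also called Rspo1 (adjusted p = 0.0262) and Lgr5 (adjusted p = 0.0208) for age in cKO females, Znrf3 for the sex difference at 6 weeks (adjusted p = 0.0486) and Rspo1 for the change of effect in males (adjusted p = 0.022). The castration counts of marker and Wnt list genes without sham 1 were added after seeing the data. Animals with the same replicate number were not seen to deviate together: correlations of same-numbered pairs ran from -0.25 to 0.17, with at most 1 of 4 pairs above 0.1. A check on 4 pairs cannot exclude that such animals share a litter or handling. The block also took the Lgr6 call at 12 weeks in females to -0.90 (adjusted p = 0.0535) and the Rspo3 change in females to 1.91 (adjusted p = 0.0636). The sham animals carry no distinct replicate numbers in the labels, so no replicate block was possible for castration. At 6 weeks in males no control has a library number up to 24, so that setting gave no value there, and neither library-number setting was applied to the sex differences.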

Other observations

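Rspo3 averaged 41.02 ± 6.33 CPM in the sham-operated cKO males at 9 weeks of the surgery series, and 21.5 ± 5.35 CPM in the unoperated cKO males of the same age in the male series (SD, n = 4 each). For Lgr5 the means were 6.78 ± 2.70 CPM in sham-operated and 5.82 ± 2.19 CPM in unoperated cKO males, and for Lgr4 86.1 ± 11.1 and 74.95 ± 10.3 CPM in the same order. These tables were scaled separately, and only the surgery series held reporter alleles. An effect of sham surgery cannot be told apart from these differences, so no test was made between the tables.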
